A study of Drosophila melanogaster with 6 samples.

Results

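The regions described here carried a peak of the chromatin protein Cmi in S2 cells and in none of 3 peak lists from whole animals (embryo, larva and prepupa). They were chosen by the peak calls themselves: all peaks of the 4 lists that overlapped or touched were merged, and merged regions on the arms 2L, 2R, 3L and 3R were kept when S2 was their only list. This left 1417 S2-only regions of 16276 merged regions on these arms (8.71%) and of 19648 in the whole genome. Among the 4280 regions of these arms with an S2 peak they made up 33.1% (exact binomial 95% interval 31.7 to 34.5). Because the calls chose them, these counts are a description. The number depends on the rule: it was 524 when peaks up to 1 kb apart were merged, and 2302 when the embryo list was left out. Each region is a single S2 peak, so the members are 1417 of the 5051 S2 peaks on the 4 arms (28.1%, 26.8 to 29.3) and hold 15.6% of the 6.43 Mb that those peaks cover.

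Cmi (Lpt) belongs to the MLR complex, in which the methyltransferase Trr places a single methyl group on histone H3 at enhancers, the DNA elements that set where and when genes are transcribed. Many enhancers are in use in some cell types and idle in others, so a map from a cell line of a single type and a map from a whole animal, which averages many tissues, need not contain the same sites. S2 cells are a line derived from late Drosophila embryos that has features of hemocytes, the blood cells of the fly.

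ChIP-seq, the sequencing of DNA precipitated with an antiserum against Cmi, was carried out on S2 cells, on wandering larvae of the third instar and on white prepupae. Each group has 1 ChIP library and 1 input library, and an embryo list from earlier published data was added to the series without a sample of its own. The label of the embryo list names a limited range of ages that begins with the youngest embryos. Read in hours, this range ends before the late embryos from which the S2 line derives. The labels give the genotype Y cn bw sp to all 6 samples, the S2 line included, and name no treatment. The animals were whole, so cells of many types share each animal library. The 4 arms carried 13156 peaks in the embryo, 5228 in the larva, 7555 in the prepupa and 5051 in S2 cells. The lists hold positions without heights or read counts, so the depth is unknown, and Cmi may have been bound where no peak was called. With 1 library per group, no comparison below has a test. Intervals cover the number of regions only, and neighbouring regions are not independent. Coordinates are on the genome build dm3, counted from 1, and the regions were not assigned to genes.

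S2-only regions were short, and S2 peaks that met 2 or 3 animal lists were longer. The median width was 543 bp (95% interval of the median 520 to 560, n = 1417), with the middle 50% between 409 and 794 bp and a range of 340 to 4430 bp. S2 peaks that met 1 animal list were of nearly the same width, with a median of 549.5 bp (531 to 578, n = 1122). Those that met 2 lists had a median of 790 bp (745 to 847, n = 943), and those that met all 3 had 1492 bp (1387 to 1609, n = 1569). The width also differed when S2 peaks were grouped by the lists of their merged region. An S2 peak need not itself meet every list of its region. S2 peaks in regions shared with the embryo alone had a median of 551 bp (531 to 580, n = 717), near that of the S2-only regions. In regions shared with the prepupa alone the median was 745 bp (595 to 963, n = 97), and in those shared with the larva alone 962 bp (845 to 1149, n = 71). In regions shared with the embryo and the larva it was 653 bp (606 to 681, n = 401).

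**Figure D1:**
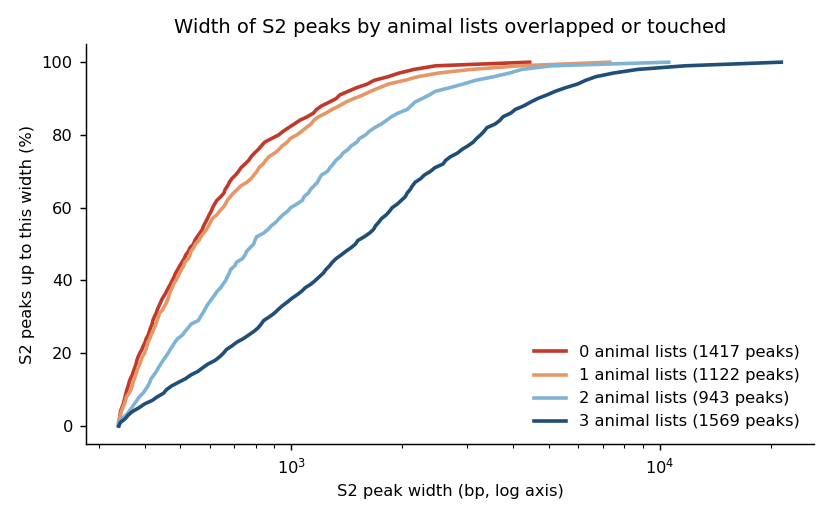
Cumulative share of S2 peaks on the 4 arms (%) against peak width (bp, log axis), with 1 line for S2 peaks that overlapped or touched 0, 1, 2 or 3 animal lists. The lines for 0 and 1 list nearly coincide, with medians of 543 and 549.5 bp, and the line for 3 lists lies far to the right, with a median of 1492 bp.

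Short peaks were frequent at the lower limit of the S2 list, whose narrowest peak is 340 bp. A width of at most 400 bp was found in 321 S2-only regions (22.7%) and in 415 of the 3634 S2 peaks with an animal counterpart (11.4%). At the other end, 40 S2-only regions (2.82%) reached 2000 bp, against 776 (21.4%) of the S2 peaks with a counterpart. In 4 classes of S2 peaks of near equal size, S2-only peaks made up 41.9% (39.1 to 44.7) of the narrowest class (340 to 461 bp) and 36.9% (34.2 to 39.6) of the next. They made up 24.5% (22.2 to 27.0) of the third class and 8.95% (7.43 to 10.7) of the widest (1435 bp or more). A wide peak also has more room to meet another list, and its part in this order was not tested. The width differed little among arms, with medians of 564.5 bp on 2L, 508.5 bp on 2R, 555 bp on 3L and 558 bp on 3R. Regions found in 1 animal list alone had medians of 430 bp in the embryo, 430.5 bp in the larva and 346 bp in the prepupa, but the narrowest peak of these lists also differs, at 280, 320 and 220 bp.

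The 10 widest S2-only regions lay on 3R (4 regions), 2R (4) and 3L (2), with none on 2L. The widest, on 3R from 12144545 to 12148974, spanned 4430 bp and had an embryonic peak 1466 bp and a prepupal peak 1496 bp away. The second, on 2R from 2299417 to 2302883, spanned 3467 bp and was at least 85006 bp from a peak of any animal list. These 2 regions stand for both settings in which wide members were found, beside animal peaks and far from them.

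In 4 more of the 10 an animal peak lay between 1882 and 4513 bp away. They were on 3R from 22059996 to 22063384 (3389 bp wide) and from 235260 to 238485 (3226 bp), on 2R from 14286808 to 14290021 (3214 bp) and on 3L from 20472075 to 20475210 (3136 bp). The remaining 4 of the 10 split evenly. On 3R from 26565376 to 26568463 (3088 bp) and on 3L from 22179440 to 22182258 (2819 bp), an embryonic peak was 490 and 523 bp away. On 2R from 147347 to 150372 (3026 bp) and from 2236314 to 2239125 (2812 bp), the nearest animal peak was 34212 and 101001 bp away. Of the 10, 8 had another S2-only region as a direct neighbour.

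Most S2-only regions lay within 5 kb of an animal peak. Distances from arbitrary positions were not computed. The values below therefore do not show whether S2-only regions lie nearer than the density of animal peaks alone would give. The gap, meaning the bases between a region and the nearest peak, had a median of 1336 bp (1212 to 1471) to any animal list. The median was 2632.5 bp when the embryo list was left out, and 3953.5 bp when peaks up to 1 kb apart were merged, which removes the closest regions by construction. It was at most 1 kb in 606 regions (42.8%), at most 5 kb in 1117 (78.8%) and at most 10 kb in 1227 (86.6%). A gap of over 50 kb to all 3 lists was found in 31 regions (2.19%). The nearest peak was embryonic for 841 regions (59.4%), prepupal for 289 (20.4%) and larval for 287 (20.3%). The embryo list is the longest, which shortens gaps to it.

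To the embryo list alone, the median gap was 2124 bp (1869 to 2409), with 466 regions (32.9%) within 1 kb and 58 (4.09%) beyond 50 kb. To the larva list it was 4004 bp (3681 to 4438), with 260 regions (18.3%) within 1 kb and 95 (6.70%) beyond 50 kb. To the prepupa list it was 4441 bp (3937 to 4931), with 220 (15.5%) and 91 (6.42%). The gaps to larva and prepupa were thus alike. The prepupa list held more peaks on these arms. The larva list had wider ones (median 783 against 493 bp) and covered more sequence (6.08 against 5.64 Mb). All 3 lists had a peak within 5 kb of 583 S2-only regions (41.1%), and within 1 kb of 90 (6.35%).

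**Figure D2:**
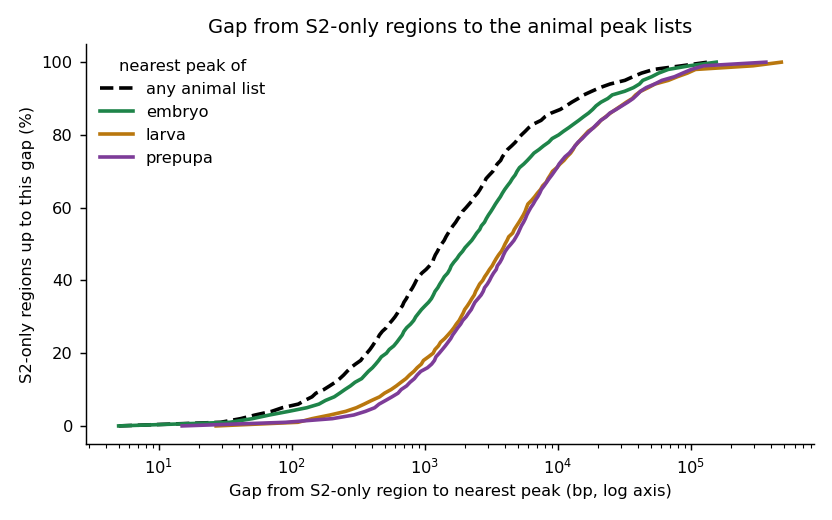
Cumulative share of the 1417 S2-only regions (%) against the gap to the nearest peak (bp, log axis) of the embryo, larva and prepupa lists (solid lines) and of any of them (dashed line). The embryo line lies left of the other 2, which nearly coincide, with medians of 2124, 4004 and 4441 bp.

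Set beside embryo-only regions, S2-only regions were closer to the larva and prepupa lists in the middle of the distribution, but a larger share of them lay far away. The median gap of the 7443 embryo-only regions was 5843 bp (5608 to 6104) to a larval and 5514 bp (5307 to 5741) to a prepupal peak, both above the S2-only medians. Beyond 50 kb lay 4.45% and 2.51% of the embryo-only regions, against 6.70% and 6.42% of the S2-only regions. The 659 regions shared by the embryo and S2 alone had median gaps of 3275 bp (2813 to 3789) to larval and 4764 bp (4070 to 5096) to prepupal peaks, with 1.97% and 2.12% beyond 50 kb. The 1665 prepupa-only regions had a median gap of 2612 bp to the embryo list, with 1.74% beyond 50 kb, against 2124 bp and 4.09% for the S2-only regions. To the larva list the prepupa-only median was 3770 bp, below the 4004 bp of the S2-only regions. The 438 larva-only regions had medians of 2429.5 bp to the embryo list and 2407.5 bp to the prepupa list, against 2124 and 4441 bp. S2-only regions were thus closer in some of these comparisons and farther in others.

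At the edge of the rule, 78 S2-only regions lay within 100 bp of an animal peak, and 62 S2 regions were left out with at most 100 bp in common with an animal list. The closest members were on 2R from 5937248 to 5938872 and from 11006867 to 11008681 and on 3L from 3412212 to 3412889, with an embryonic peak 5, 7 and 11 bp away. Just outside the rule, the S2 and embryonic peaks on 3R from 11661864 to 11662712 and from 20104346 to 20105687 touched without a shared base, and those on 2L from 5021121 to 5022739 shared 2 bp.

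The 5 most remote members each had another S2-only region as a direct neighbour. This far from animal peaks only S2-only regions can lie near, so the neighbours follow in part from the choice. The farthest from any animal peak, on 2L from 14850571 to 14851187, was 617 bp wide and had its nearest animal peak, an embryonic one, 133257 bp away. Those on 2L from 14808219 to 14808795 and from 14806794 to 14807684 were 101473 and 100048 bp from an embryonic peak. The latter 2 and the first belong to a run of 5 S2-only regions on 2L from 14804198 to 14851187, which had no other region for 97452 bp on its left and 133257 bp on its right. The region on 3R from 8682536 to 8683647 was 1112 bp wide and 102333 bp from a larval peak, and the one on 2R from 2236314 to 2239125 was 101001 bp from a larval peak. Remote regions were not narrow: the 159 regions 10 to 50 kb from an animal peak had a median width of 614 bp (564 to 709) and the 31 beyond 50 kb of 592 bp (509 to 847), against 526 bp (501 to 555) for the 606 within 1 kb. Of the 31 remote regions, 13 were on 2L, 10 on 2R, 7 on 3R and 1 on 3L.

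S2-only regions followed each other along the arms. Of the 1417, 776 (54.8%, 52.1 to 57.4) had another S2-only region as the next merged region on at least 1 side, and 196 had one on both sides. The same was true of 1702 of the 14859 other regions (11.5%, 10.9 to 12.0). Among the others the share was 28.6% (27.0 to 30.3) for S2 regions with an animal peak, 9.36% (6.80 to 12.5) for larva-only, 7.87% (6.62 to 9.27) for prepupa-only and 7.31% (6.73 to 7.92) for embryo-only regions. An S2-only region was thus next to another S2-only region more often than a region of any other of these classes was. How often regions of the other classes stand next to their own kind was not counted. When S2 regions alone were considered, 65.0% (62.4 to 67.5) of the S2-only and 47.3% (45.5 to 49.1) of the other S2 regions had an S2-only neighbour. S2-only regions make up 33.1% of these S2 regions, and the share that placement without order would give was not computed.

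The classes at the flanks of S2-only regions give the same picture from the other side. Of their flanking regions, 34.3% were S2-only, a class that makes up 8.71% of all regions, and 20.2% were embryo-only, a class that makes up 45.7%. Regions shared by the embryo and S2 alone formed 8.90% of the flanks and 4.05% of all regions, and those shared by all 4 lists formed 13.9% and 8.30%. Regions shared by the 3 animal lists without S2 formed 1.31% of the flanks and 4.88% of all regions.

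**Figure D3:**
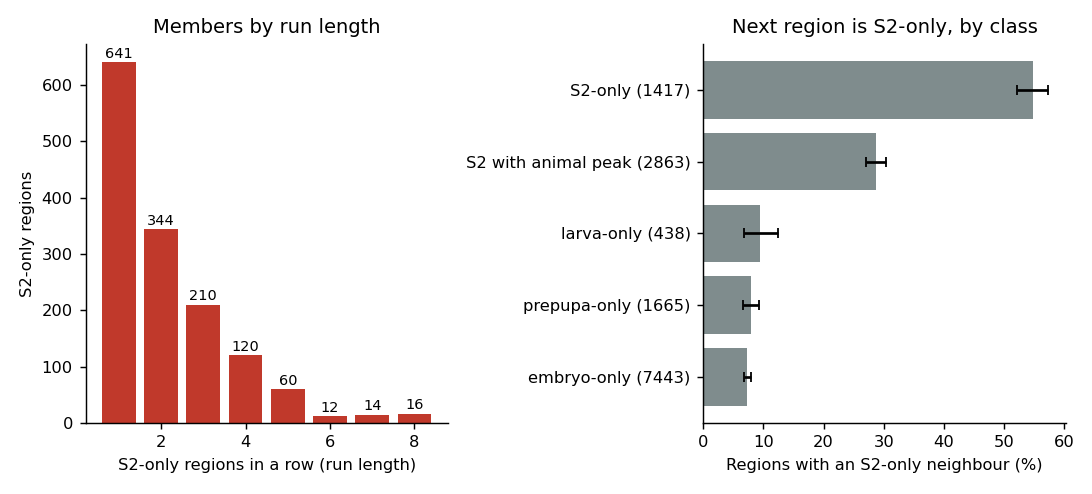
Left, number of S2-only regions that stand in runs of 1 to 8 consecutive S2-only regions. Right, share of regions (%) of each class whose next merged region on at least 1 side is S2-only, with exact binomial 95% intervals over regions and the number of regions in brackets; the S2-only bar stands at 54.8% and the embryo-only bar at 7.31%.

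Uninterrupted runs held up to 8 S2-only regions. Alone between regions of other classes stood 641 members (45.2%), 344 (24.3%) stood in pairs, and 432 (30.5%) in 118 runs of 3 or more. Members of runs of 3 or more had a median width of 575.5 bp (539 to 609) and a median gap to an animal peak of 3478.5 bp (3063 to 4060), against 528 bp (503 to 555) and 679 bp (612 to 755) for members standing alone. A member inside a run is by construction screened from animal peaks by its neighbours, which lengthens its gap.

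The 5 longest runs, ordered by number of regions and then by length in bases, differed in density. On 2R from 15626777 to 15648270, 8 regions of 352 to 899 bp covered 4089 of 21494 bp. On 3R from 21941027 to 21955388, 8 regions of 348 to 2418 bp covered 9554 of 14362 bp, so that most of this stretch was S2-only peak. On 2L from 8404127 to 8414582, 7 regions covered 5657 of 10456 bp, and this run was enclosed by regions of all 4 lists 36 bp to its left and 127 bp to its right. These 3 runs are compact. The other 2 were spread out, with 7 regions over 203916 bp on 2R from 2154070 to 2357985 and 6 over 93293 bp on 2R from 13035631 to 13128923. The first of these contains 2 of the 10 widest members, including the 3467 bp region named above. A second run of 6, on 2R from 4853 to 56441, was as long by number but shorter in bases (51589 bp).

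Distances among S2 peaks describe the same clustering in bases. The gap from an S2-only region to the next S2-only region had a median of 3105 bp (2687 to 3558), and 467 (33.0%) had one within 1 kb. The gap to the nearest S2 peak with an animal counterpart had a median of 2623 bp (2290 to 3005). S2 peaks with a counterpart, which are more numerous, were 877 bp (790 to 964) from the next of their kind. When S2 peaks up to 10 kb apart were joined into islands, 1058 S2-only regions (74.7%) fell into 423 islands that also held S2 peaks with an animal counterpart. A further 237 (16.7%) formed 88 islands of 2 or more S2-only peaks alone, and 122 (8.61%) stood alone. The island with the most members, on 3R from 11788560 to 11880315, held 20 S2-only peaks among 41 S2 peaks, and the next, on 2L from 8355960 to 8438161, held 18 among 31.

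The 4 arms differed in how many S2-only regions they carried per Mb, in the same order as for other S2 regions except at the lower end. Arm 2R carried 440, or 20.8 per Mb of its span, 3R 421 (15.1 per Mb), 2L 276 (12.0 per Mb) and 3L 280 (11.4 per Mb). S2 regions with an animal peak numbered 39.1 per Mb on 2R, 32.8 on 3R, 26.8 on 3L and 20.1 on 2L. The span is the highest peak end in any list. As a share of the S2 regions of an arm, S2-only regions made up 37.4% (33.9 to 41.0) on 2L, 34.7% (32.1 to 37.4) on 2R, 31.5% (29.0 to 34.1) on 3R and 29.9% (26.9 to 32.9) on 3L. For each region on 2R there were 0.63 on 2L among S2-only regions and 0.56 among other S2 regions, but 1.15 among embryo-only regions. Of the S2-only regions of 2L and 2R, 38.5% (35.0 to 42.2) were on 2L, against 35.8% (33.2 to 38.5) of the other S2 regions, so the low share of 2L was found in both classes of S2 region.

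Along each arm, S2-only regions formed blocks. In bins of 500 kb, the number of S2-only regions ranged from 0 (20 of 196 bins) to 29, with a median of 6. The fullest 20 bins held 423 regions (29.9%), whereas for the other S2 regions their own fullest 20 bins held 24.6%, and for embryo-only regions 19.4%. Sparser classes are more uneven by this measure, and the variance of the counts divided by their mean gave the opposite order, with 5.56 for S2-only, 7.03 for other S2 and 9.06 for embryo-only regions. That ratio in turn tends to grow with the number of regions in a class. Both measures thus depend on density, and neither settles the order of unevenness among the classes. Across the 196 bins the number of S2-only regions went with that of S2 regions with an animal peak (Pearson r = 0.72, Spearman rho = 0.67) and little with that of embryo-only regions (r = -0.12, rho = -0.12). Within the arms r with the other S2 regions was 0.72 on 2L, 0.70 on 2R, 0.76 on 3L and 0.67 on 3R. Both classes of S2 region come from the same library and from the same peak calls, so these are descriptions and have no p-value.

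**Figure D4:**
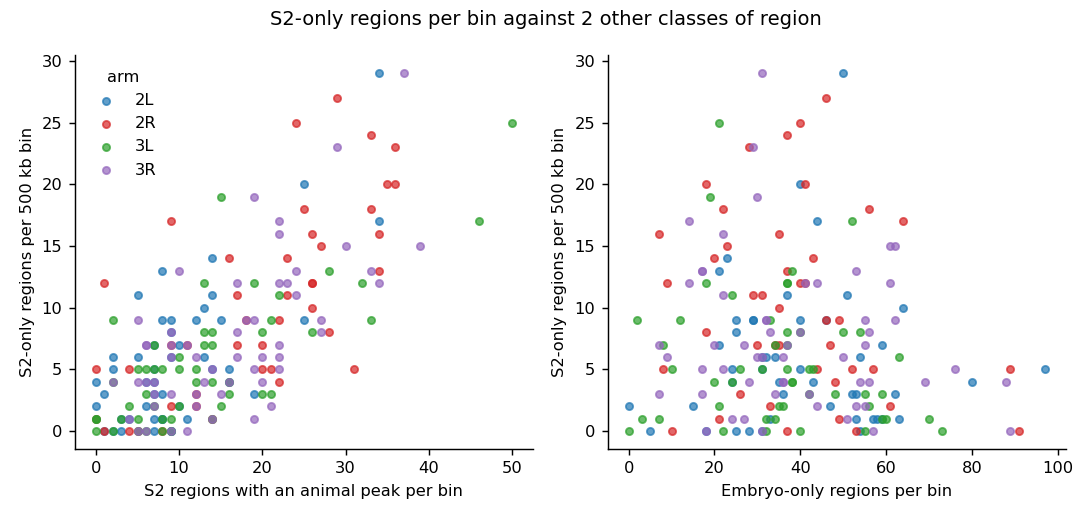
S2-only regions per 500 kb bin against S2 regions with an animal peak (left) and against embryo-only regions (right), with 1 point per bin for 196 bins coloured by arm. Points rise together on the left (r = 0.72) and show little relation on the right (r = -0.12).

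The fullest bins were the following. On 2L they were 8000001 to 8500000, with 29 S2-only of 63 S2 regions, and the adjoining 8500001 to 9000000, with 20 of 45. On 2R, 14000001 to 14500000 held 27 of 56 and 17000001 to 17500000 held 25 of 49. On 3L, 3000001 to 3500000 held 25 of 75 and 2000001 to 2500000 held 19 of 34, and on 3R, 5000001 to 5500000 held 29 of 66 and 11500001 to 12000000 held 23 of 52. In all 8 bins S2 regions with an animal peak were present as well, from 15 to 50 per bin, more than the median bin's 12.5. On 3L the first 5.5 Mb, a stretch chosen after the values were seen, held 137 of the arm's 280 S2-only regions, or 24.9 per Mb against 7.51 per Mb in the rest. S2 regions with an animal peak were also denser there, at 46.9 against 21.0 per Mb.

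The share of S2 regions that were S2-only also varied between bins. Over the 150 bins with at least 10 S2 regions it ranged from 0% to 92.3%, with a median of 33.3%, and in 19 bins it reached 50% or more. The highest share was at the start of 2R, from 1 to 500000, where 12 of 13 S2 regions were S2-only (92.3%, 64.0 to 99.8) and the whole bin held 24 regions. The second was near the end of 3L, from 24000001 to 24500000, with 9 of 11 (81.8%, 48.2 to 97.7).

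Both of these bins lie at the centromere-proximal end of their arm, where the assembled sequence runs into pericentric heterochromatin, the densely packed and repeat-rich chromatin around centromeres. Within 1 Mb of the proximal end of the 4 arms, 49 of 85 S2 regions were S2-only (57.6%, 46.4 to 68.3), against 1368 of 4195 elsewhere (32.6%, 31.2 to 34.1). By arm, they were 12 of 14 on 2R, 10 of 12 on 3L, 15 of 25 on 2L and 12 of 34 on 3R. On 3R the share of 35.3% (19.7 to 53.5) was thus near that of the whole arm. The arm ends were added after the bin values were seen, and the 2 bins named above are part of these counts. They supply 12 of the S2-only regions counted on 2R and 9 of those on 3L. The proximal shares are therefore not separate from the choice of these bins. S2-only regions within 1 Mb of the proximal ends were of ordinary width (median 527 bp) but had a median gap of 7807 bp to the nearest animal peak, against 1283 bp elsewhere. These values depend on the limit of 1 Mb: within 0.5 Mb the share was 58.5% (44.1 to 71.9) and the median gap 22563 bp, and within 2 Mb they were 42.7% (36.5 to 49.2) and 3725 bp. By arm, the share within 2 Mb was 50% on 2R, 46.5% on 3L, 43.3% on 2L and 32.4% on 3R. In the distal Mb of the arms, next to the telomeres, 62 of 219 S2 regions were S2-only (28.3%, 22.4 to 34.8). Regions of all classes numbered 363 in the proximal and 824 in the distal Mb, so the proximal shares rest on few regions.

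**Figure D5:**
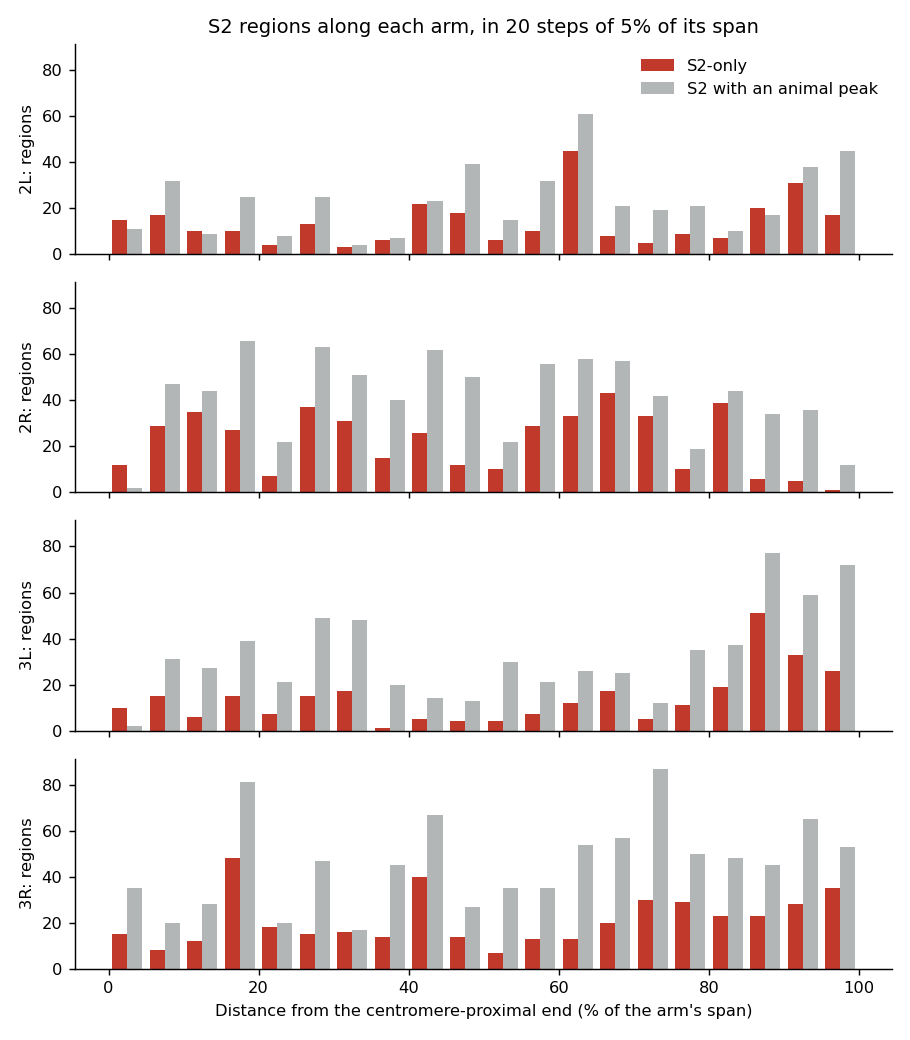
Number of S2-only regions (red) and of S2 regions with an animal peak (grey) in 20 steps of 5% of each arm's span, from the centromere-proximal end (left) to the telomere-proximal end (right). Red exceeds grey in the first step of 2L, 2R and 3L, with 15 against 11, 12 against 2 and 10 against 2 regions. On 2L it also does so in step 3 (10 against 9) and in step 18 (20 against 17). The distal steps of 3L stand out in both colours.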

How the data were processed

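Per the labels' protocols, formaldehyde-fixed chromatin was precipitated with a Cmi antiserum and sequenced on Illumina libraries. The authors deposited, for each of the 3 ChIP samples and for the embryo data, a list of peak positions (chromosome, start, end) and no other value. The submitters' processing notes name BWA, MACS2 and dm3. Not given in the sources used here are versions, the peak threshold, the use of input and any pooling. Input libraries and depth were not analysed here.

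Peaks of the 4 lists were merged where they overlapped or touched. Gaps were counted in bases between nearest ends. Shares carry exact binomial (Clopper-Pearson) 95% intervals, and medians carry exact binomial intervals from order statistics. No test was made. The merging and gap steps were tested on simulated data. Bins were 500 kb and regions were placed by their midpoint.

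Alternatives changed the overlap that counts as shared, the peaks and lists that enter, the peak width and the bins. Named regions are the 10 widest, the 5 longest runs, the 5 farthest from and the 3 closest to an animal peak, the 3 S2 regions with the shortest overlap, the 2 fullest bins per arm and the bin with the highest S2-only share among those with at least 10 S2 regions. The members and lists were chosen with earlier results of these data known. The arm ends, the islands, the second bin by share and the distal stretch of 3L were added after the values were seen. Computations used Python 3.11.15, numpy 2.4.6, scipy 1.17.1 and pandas 2.3.3, and figures matplotlib 3.10.9.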

Additional observations from a re-analysis of the deposited data

Results flagged for a closer look

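Peaks outside the 4 arms did not enter the comparisons above but hold S2-only regions of their own. On X, 267 of 609 S2 regions were S2-only (43.8%, 39.9 to 47.9), and on chromosome 4, 7 of 14 (50%, 23.0 to 77.0). On the 6 heterochromatic sequences of dm3, 70 of 74 S2 regions were S2-only (94.6%, 86.7 to 98.5), where the S2 list had 75 peaks, the embryo list 50, the prepupa list 23 and the larva list 10. On the unplaced sequences U and Uextra the S2-only regions numbered 188 of 216 (87.0%, 81.8 to 91.2). On the 4 arms the share was 33.1%, and the differences from it were not tested.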

How the results depend on the processing

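The S2-only regions numbered 524 with peaks up to 1 kb apart merged, 663 with wide peaks (above the median width of each list) and 2302 without the embryo list; in the other 5 alternatives they stayed within 1.5 times of 1417, from 1534 to 1923. Their share of S2 regions was 36.8% with 50% of the shorter peak shared, 19.2% with the 1 kb merge, 28.7% with wide peaks, 43.2% with equal numbers of widest peaks, 39.2% with 500 bp peaks, and 50.4%, 34.6% and 35.5% without the embryo, larva and prepupa lists. The last 2 were added after seeing the data. The median width was 640.5 bp with the 1 kb merge and, by construction, 1121 bp with wide peaks and 500 bp with 500 bp peaks. In the order of the shares, the median gap was 900.5, 3953.5, 2490, 1974, 946 and 2632.5 bp, and 1493 bp without the prepupa list. With 50% of the shorter peak shared, a member may overlap an animal peak without any gap, which shortens the median by construction. The share with an S2-only neighbour was, in the same order, 51.9, 43.1, 47.8, 65.5, 46.6 and 71.9%, and 65.0% among S2 regions alone. The ratio of 2L to 2R was 0.76 with the 1 kb merge and 0.74 with wide peaks, below 1 throughout. The fullest 10% of bins held 35.6% of the regions at 250 kb and 26.0% at 1000 kb. Apart from the settings named as construction, the cause of these shifts was not tested. The unknown depth limits all counts. No paired analysis was possible because each group has 1 library.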
